A study of Rattus norvegicus with 26 samples.

Results

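The genes described here encode 9 neuropeptides of the spinal dorsal horn and of the sensory fibres that end in it. They are Tac1, Penk, Pdyn, Sst, Npy, Calca, Calcb, Cck and Grp, chosen by gene name from a count table of 32883 genes, and each has 1 row there. Transcript levels were measured by poly(A) RNA sequencing in 26 libraries, each from a 5 mm segment of thoracic spinal cord around the lesion, or the matching segment of an uninjured animal. All animals were wild type adult female Sprague-Dawley rats, 250 g, given as postnatal day 70 in every group. By the methods of the study rats received cyclosporin A daily against rejection. Whether Intact and sub-SCI rats received it is not stated there. Intact rats (intact or sham, n = 4) had no compression. In all other groups an aneurysm clip of 60 g had been closed on the cord at T10 for 1 min, a model of incomplete spinal cord injury (SCI) in which some tissue is spared. The sub-SCI group (n = 3) was taken at the time of transplantation, 7 days after injury. At that day the remaining rats received mesenchymal stem cells from human umbilical cord (hUC-MSCs, +MSC) or the vehicle (+PBS) intrathecally, and were taken 1, 2 or 4 weeks post-transplantation (wpt). These were +PBS-1w (n = 3), +MSC-1w (n = 3), +PBS-2w (n = 2), +MSC-2w (n = 3), +PBS-4w (n = 4) and +MSC-4w (n = 4). The labels name the +PBS groups as SCI without MSC. The graft cells are human, and reads that mapped to the human genome had been removed before counting.

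Neuropeptides are cut from larger precursors, packed into dense-core vesicles and released beside the fast transmitters. In the dorsal horn, substance P (from Tac1), cholecystokinin (Cck) and gastrin-releasing peptide (Grp) are known as excitatory signals, and enkephalin (Penk), dynorphin (Pdyn), somatostatin (Sst) and neuropeptide Y (Npy) as signals that mostly damp transmission in pain and itch pathways. Calca and Calcb encode the α and β forms of calcitonin gene-related peptide (CGRP), which in the cord is found in terminals of primary sensory neurons and in motor neurons. A transcript measured in a cord segment comes mainly from cells whose bodies lie in it.

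The RefSeq promoters (rat build GRCr8) of Tac1 and Sst, whose transcripts varied together over the libraries, and of Calca, whose transcript followed them less closely, are shown for comparison as the 250 bases before the annotated start. They lie at chr4:36645333-36645582 on the plus strand (Tac1), chr11:90461296-90461545 on the plus strand (Sst) and chr1:178317530-178317779 on the minus strand (Calca). Capitals mark TGACG on either strand, which is also the start of the cyclic AMP response element TGACGTCA.
Tac1: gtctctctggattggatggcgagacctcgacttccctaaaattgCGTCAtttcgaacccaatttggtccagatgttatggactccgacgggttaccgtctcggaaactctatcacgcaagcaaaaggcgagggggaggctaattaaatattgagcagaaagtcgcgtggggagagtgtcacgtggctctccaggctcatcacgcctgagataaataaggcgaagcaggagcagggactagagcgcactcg
Sst: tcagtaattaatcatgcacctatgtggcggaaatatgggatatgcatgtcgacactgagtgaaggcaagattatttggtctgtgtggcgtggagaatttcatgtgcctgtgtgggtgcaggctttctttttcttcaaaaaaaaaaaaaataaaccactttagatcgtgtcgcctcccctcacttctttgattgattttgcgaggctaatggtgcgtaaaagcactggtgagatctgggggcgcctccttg
Calca: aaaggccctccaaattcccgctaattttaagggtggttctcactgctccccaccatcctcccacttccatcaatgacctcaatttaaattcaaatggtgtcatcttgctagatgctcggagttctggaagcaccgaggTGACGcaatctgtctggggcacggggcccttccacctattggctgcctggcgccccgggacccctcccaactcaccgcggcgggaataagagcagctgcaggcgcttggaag
Of the 9 genes, 6 had a promoter in the table used (Tac1, Pdyn, Sst, Npy, Calca and Grp). The letters TGACG were in 3 of these 6, those of Tac1 (206 bases before the start), Calca (112 bases) and Grp (86 bases), against 18.2% of all 33469 promoters of this length. Within these 250 bases none of the 6 held TGACGTCA (1.59% of all promoters) or TGANTCA, the letters of an AP-1 element (6.34%), where both strands were searched. Bases outside this window were not searched and the annotated starts were not checked. An element that lies beyond the window would be missed, so a gene is not read as lacking it.

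Of the 9 genes, 8 passed the filter on low counts and were tested, among 17990 genes in all. Npy had 0 to 2 counts per library and was not tested. Npy is known from inhibitory interneurons of the dorsal horn, and here it was not detectable beyond the limit of 3 counts, which corresponds to 0.0656 to 0.164 CPM (counts scaled to 1e+06 per library). The annotation's model of the gene was not checked, so these counts are not read as absence of the transcript. Per transcript length (RPKM, the CPM per kilobase) the level in Intact was highest for Sst (131 ± 19.9, SD, n = 4), then Penk (67.3 ± 6.54), Cck (44.7 ± 3.01), Tac1 (21.5 ± 6.92), Calca (21.0 ± 9.48), Calcb (9.49 ± 3.79), Pdyn (8.48 ± 1.07) and Grp (1.73 ± 0.885). The libraries of Sst, Penk, Cck and Tac1 were in this order without overlap. Tac1 and Calca, Calca and Calcb, and Calcb and Pdyn overlapped, and Grp lay below all others. Values are given from here on as CPM scaled by the trimmed mean of M values (TMM), which compares a gene between libraries but not with other genes.

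**Figure D1:**
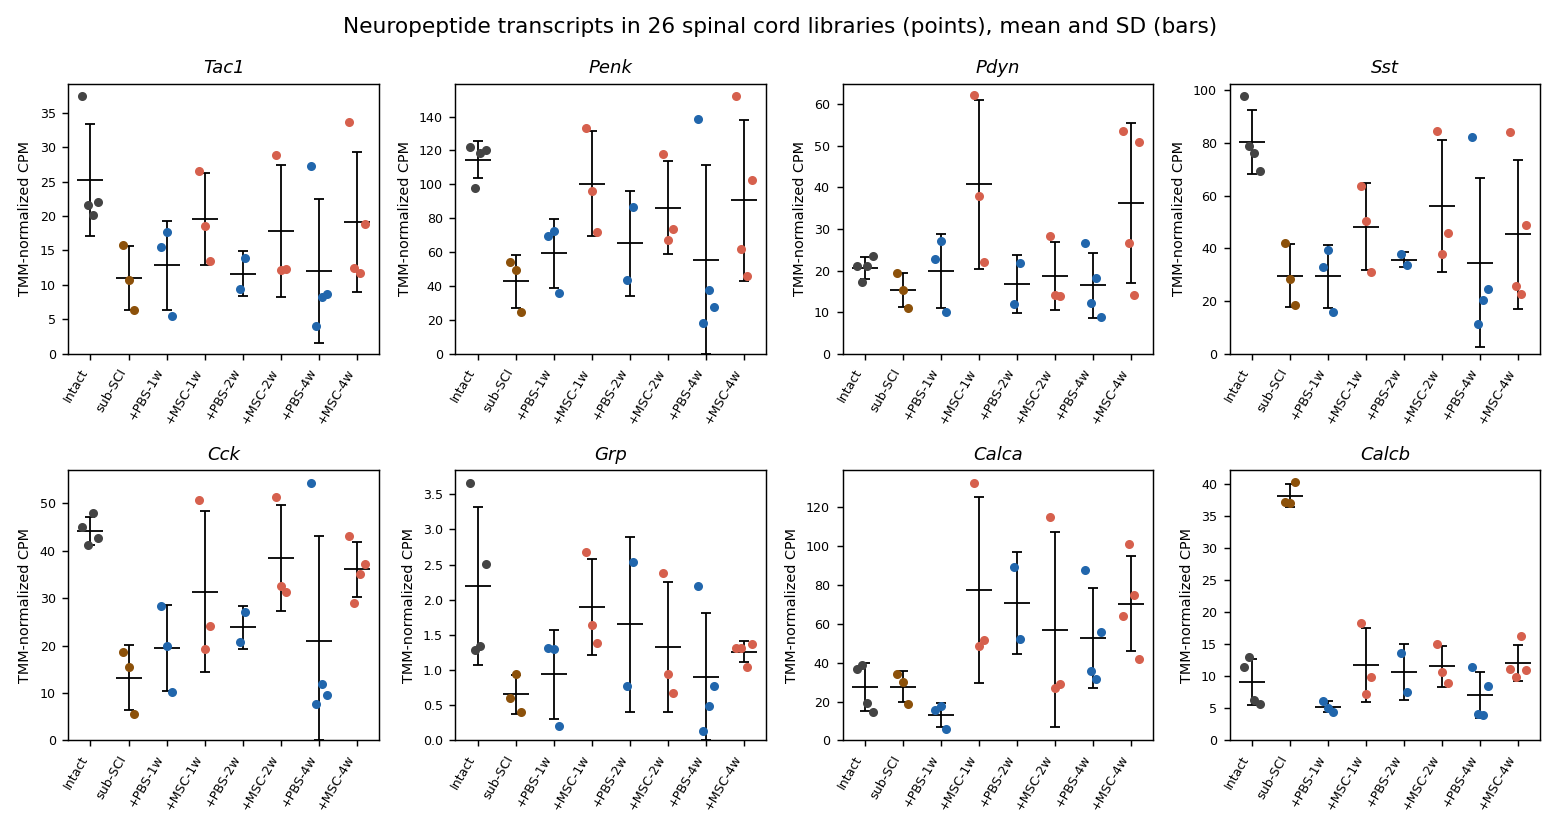
TMM-normalized CPM (y axis, from 0, a scale of its own in each panel) of the 8 tested neuropeptide genes in the 8 groups (x axis). Points are libraries and the black lines give the mean ± SD, cut at 0 where the SD reaches below it. Calcb stands at 37.2 to 40.3 CPM in sub-SCI and below 20 CPM in every other group, and in +PBS-4w 1 library, replicate 1, lies far above the other 3 libraries for Tac1, Penk, Sst and Cck.

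The total count lay between 19496602 and 43468509 per library. Libraries that share the label replicate 1 tended to be high, being the highest of their group for each of the 8 genes in 5 to 7 of the 8 groups. The library +PBS-4w replicate 1 stood apart from its group, with a mean log2 CPM of 10 neuronal marker genes of 7.90 against 6.14 to 6.62 in the other 3. Results of the members on +PBS-4w are therefore also given without it. Those of receptor, processing, enzyme, other peptide and marker genes are given only with it. The 10 neuronal markers were present in every library (summed level 9898 to 11995 CPM in Intact and 536 to 2200 CPM in sub-SCI). A differentially expressed gene (DEG) was called at an edgeR adjusted p below 0.01 with a log2 fold change beyond 1 in either direction. Of the markers of other cells between sub-SCI and Intact, those of fibroblasts (6 of 6), macrophages and microglia (6 of 6), lymphocytes (4 of 6) and Schwann cells (1 of 6) were higher DEGs. Those of motor neurons (5 of 6), fast transmitters (6 of 6), oligodendrocytes (4 of 6), astrocytes (3 of 6), noradrenergic fibres (2 of 3 tested) and primary sensory neurons (2 of 7 tested) were lower DEGs. Of 9 dorsal horn transcription factors tested, 6 were lower DEGs and 1, Maf, was a higher DEG. Over all genes 17.5% were lower and 16.6% were higher DEGs in this comparison. In tissue pieces such as these, fewer cells of a type and less RNA per cell cannot be told apart.

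The first comparison asks what injury alone did to these transcripts. P-values come from the quasi-likelihood test of edgeR, adjusted by Benjamini-Hochberg over the whole table, and a second, looser rule asks for an adjusted p below 0.05 at any fold. Between sub-SCI and Intact, 1 member was a lower DEG, Cck, where 17.5% of all genes were, and 1 was a higher DEG, Calcb, where 16.6% were. By the second rule 4 members fell, Penk, Sst, Cck and Grp (30.9% of all genes), and 1 rose, Calcb (30.5%). The median log2 fold change of the 8 genes was -1.31, beside -0.02 over all genes. Because libraries labelled replicate 1 were often high, the fit was repeated with a term for replicate 1 and in the other libraries only. Both choices were made from the levels of these same genes, so their calls are not independent support. The labels do not name replicate 1 as a batch. Over all genes tested, deviations from the group mean of the 8 replicate 1 libraries had a median pairwise r of 0.17 (-0.15 to 0.45). With the term, 4 members were lower DEGs (17.9% of all genes), Tac1 (log2 fold change -1.30, adjusted p = 0.00721), Penk (-1.54, adjusted p = 0.00551), Sst (-1.58, adjusted p = 0.00151) and Cck (-1.91, adjusted p = 0.000573), and 5, with Grp, passed the second rule (32.1%). In the other libraries 3 were lower DEGs (16.7%), Penk, Sst and Cck, and 4, with Tac1 (-1.26, adjusted p = 0.0235), passed the second rule (30.4%), while Grp did not (-1.30, adjusted p = 0.114).

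Cck, a peptide of excitatory dorsal horn interneurons, stood at 44.9, 41.1, 48.0 and 42.6 CPM in Intact and at 18.7, 15.4 and 5.63 CPM in sub-SCI. All sub-SCI libraries were below all Intact libraries, and replicate 3 was the lowest. The fall was 3.33-fold (log2 fold change -1.73, SE 0.55, edgeR adjusted p = 0.00936). It was a DEG in 8 of 26 fits that left out 1 library each, passed the second rule in 25, and missed it without sub-SCI replicate 3 (log2 fold change -1.37, adjusted p = 0.0581). Grp, which marks a small excitatory population of the superficial dorsal horn, was the least abundant member tested, with 4 to 89 counts per library. It had 3.66, 1.28, 1.34 and 2.51 CPM in Intact and 0.610, 0.942 and 0.407 CPM in sub-SCI, again without overlap (log2 fold change -1.74, SE 0.70, adjusted p = 0.0357). The adjusted p of Grp rose to between 0.0614 and 0.124 when Intact replicate 1 or 4 or sub-SCI replicate 1 or 3 was left out. Tac1, the precursor of substance P and neurokinin A, had 37.4, 21.6, 20.1 and 22.0 CPM in Intact and 15.7, 10.8 and 6.41 CPM in sub-SCI. The groups did not overlap, with Intact replicate 1 high, but with all libraries and no term for replicate 1 the difference did not pass either rule (log2 fold change -1.20, SE 0.549, adjusted p = 0.0629).

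The opioid precursors gave these values. Penk, the enkephalin precursor, had 122, 98.1, 118 and 120 CPM in Intact and 54.2, 49.2 and 24.6 CPM in sub-SCI, a fall of 2.69-fold (log2 fold change -1.43, SE 0.537, adjusted p = 0.0259). All sub-SCI libraries of Penk were below all Intact libraries. Without sub-SCI replicate 3 its adjusted p was 0.117. Pdyn, the dynorphin precursor, which acts on κ receptors, had 21.1, 17.1, 21.1 and 23.4 CPM in Intact and 19.4, 15.4 and 11.1 CPM in sub-SCI. These groups overlapped and Pdyn did not pass either rule (log2 fold change -0.43, SE 0.456, adjusted p = 0.426). The difference between the changes of Penk and Pdyn was not tested. Sst, the somatostatin precursor of excitatory interneurons, had 97.7, 78.8, 76.0 and 69.3 CPM in Intact and 42.0, 28.4 and 18.6 CPM in sub-SCI, without overlap (log2 fold change -1.44, SE 0.546, adjusted p = 0.0271). Leaving out Intact replicate 1 or sub-SCI replicate 2 or 3 brought the adjusted p of Sst to 0.0641, 0.0703 and 0.115.

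Of the CGRP genes, Calcb rose and Calca did not pass. Calcb had 11.4, 13.01, 6.38 and 5.66 CPM in Intact and 37.2, 37.2 and 40.3 CPM in sub-SCI. The sub-SCI libraries lay close together and far above every Intact library, a rise of 4.20-fold (log2 fold change 2.07, SE 0.366, adjusted p = 4.61e-05). Calcb remained a DEG in all 26 fits that left out 1 library. In sub-SCI it was also above each of the 19 libraries taken after transplantation, of which the lowest had 4.03 CPM (+PBS-4w replicate 3) and the highest 18.3 CPM (+MSC-1w replicate 1). At 4 wpt Calcb in +PBS had 11.4, 4.20, 4.03 and 8.53 CPM, 5.42-fold below sub-SCI (log2 fold change -2.44, SE 0.369, adjusted p = 7.54e-05). It was the only member called as a lower DEG between +PBS-4w and sub-SCI, where 3.09% of all genes were, and no member was a higher DEG there. This call held in 26 of 26 fits without a library, but not with edgeR on only the 2 groups (log2 fold change -2.45, adjusted p = 0.0122). Calca, whose gene also yields calcitonin by alternative splicing, had 37.0, 39.0, 19.3 and 14.5 CPM in Intact and 34.4, 30.0 and 18.8 CPM in sub-SCI. These groups overlapped in full (log2 fold change 0.02, SE 0.527, adjusted p = 0.979). Calca and Calcb are close paralogs, and how reads that match both were assigned is not given in the sources used here.

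The ratio of Calca to Calcb per transcript length, a quantity within a library that no scaling changes, is given as a description. It was 2.39, 2.21, 2.22 and 1.88 in the Intact libraries and 0.680, 0.595 and 0.343 in those of sub-SCI, so Calcb was the more abundant CGRP transcript in sub-SCI and Calca in Intact. In +PBS-1w the ratio was 1.89, 2.58 and 0.966. It was 4.78 and 5.09 in +PBS-2w and 4.80 to 6.29 in +PBS-4w, above every Intact library. In +MSC the ratio was 3.82 to 5.33 at 1 wpt, 1.87 to 5.63 at 2 wpt and 2.81 to 7.44 at 4 wpt. The markers of the cells known to hold CGRP are given as a description, and the source of the Calcb transcript was not tested. Markers of primary sensory neurons summed to 26.3 to 33.7 CPM in Intact and to 13.3 to 15.3 CPM in sub-SCI, with Mrgprd at 0 counts in Intact, and those of motor neurons to 339 to 501 CPM and 44.6 to 154 CPM.

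**Figure D2:**
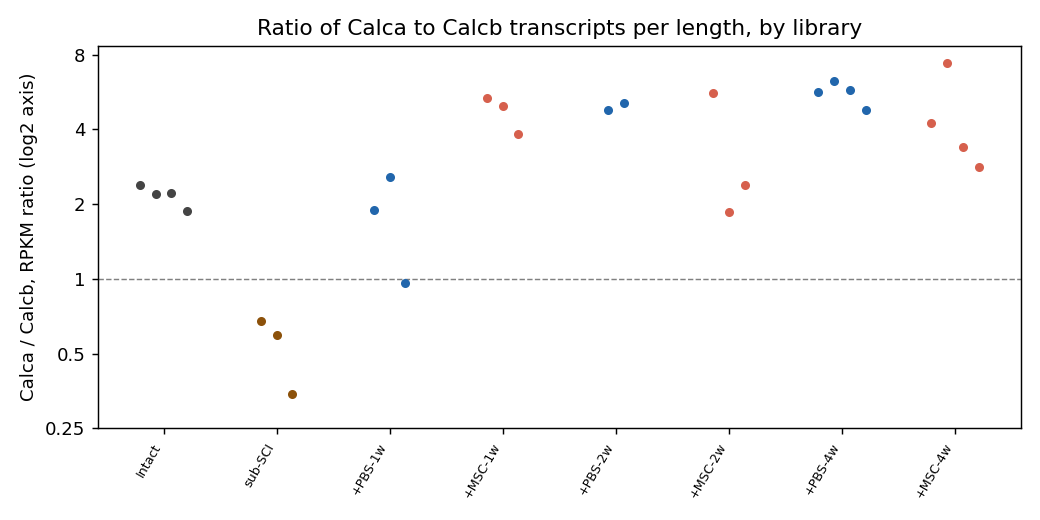
Ratio of Calca to Calcb RPKM (y axis, log2 scale) in each library (points) of the 8 groups (x axis), with the dashed line at equal levels. The 3 sub-SCI libraries (0.343 to 0.680) lie below 1 and the 4 Intact libraries between 1.88 and 2.39.

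In the vehicle groups most members were still below Intact in their fitted values (8, 6 and 7 of 8 at 1, 2 and 4 wpt). No member was a lower DEG against Intact at 1 wpt (12.5% of all genes), 2 wpt (5.66%) or 4 wpt (10.7%). By the second rule Sst fell at 1 wpt (26.4% of all genes) and at 4 wpt (23.9%), and no member at 2 wpt (17%). The median log2 fold change of the 8 genes was -1.02, -0.61 and -1.06 at the 3 times. Sst had 32.9, 39.2 and 15.8 CPM in +PBS-1w, 37.8 and 33.7 CPM in +PBS-2w, and 82.2, 11.3, 20.3 and 24.6 CPM in +PBS-4w. All libraries but the first of +PBS-4w were below every Intact library, and the log2 fold changes were -1.46 (SE 0.547, adjusted p = 0.0295), -1.17 (SE 0.627, adjusted p = 0.151) and -1.22 (SE 0.493, adjusted p = 0.043). At 1 wpt the adjusted p of Sst reached 0.051 to 0.133 without Intact replicate 1 or 2 or +PBS-1w replicate 1 or 3, and at 4 wpt it passed in 17 of 26 such fits, the others being those without any 1 Intact library, either +PBS-2w library or +PBS-4w replicate 2, 3 or 4 (adjusted p = 0.0506 to 0.126).

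The values at 4 wpt turned on +PBS-4w replicate 1. Penk had 138 CPM in that library and 18.3, 37.8 and 27.7 CPM in the others, and Cck had 54.2 CPM against 7.66, 11.9 and 9.68 CPM. In both genes the first library was above every Intact library and the other 3 were far below all of them. Tac1 had 27.3 CPM and then 3.99, 8.19 and 8.63 CPM, its first library being within the Intact range, and Grp had 2.20 CPM and then 0.141, 0.492 and 0.780 CPM. With all 4 libraries the log2 fold changes of Tac1, Penk, Cck and Grp against Intact were -1.07, -1.04, -1.08 and -1.27 (adjusted p = 0.0771, 0.0741, 0.0685 and 0.0937). The library +PBS-4w replicate 1 was set aside after its neuronal markers and these same genes were seen to be high in it. Calls without it are therefore not independent support. Without +PBS-4w replicate 1, 5 members were lower DEGs (11.6% of all genes) and the same number passed the second rule (25.8%). Their log2 fold changes were then -1.82 for Tac1 (adjusted p = 0.00236), -1.99 for Penk (adjusted p = 0.000236), -2.05 for Sst (adjusted p = 0.000479), -2.13 for Cck (adjusted p = 7.73e-05) and -2.19 for Grp (adjusted p = 0.00622). Pdyn, with 26.6, 12.2, 18.3 and 8.81 CPM in +PBS-4w, did not pass with it (log2 fold change -0.33, adjusted p = 0.541) or without it (-0.61, adjusted p = 0.238).

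Calca was the member with the highest fitted change against Intact in each group after transplantation except +PBS-1w. It had 15.9, 17.6 and 5.88 CPM in +PBS-1w, 89.2 and 52.3 CPM in +PBS-2w, and 87.8, 35.9, 31.5 and 55.7 CPM in +PBS-4w. At 1 wpt 2 of 3 libraries lay within the range of Intact, and at 2 wpt both libraries were above it. None of these differences from Intact passed (log2 fold change -1.06, adjusted p = 0.109, then 1.37, adjusted p = 0.0661, and 0.94, adjusted p = 0.113). In +MSC Calca had 133, 48.4 and 51.7 CPM at 1 wpt, 115, 27.2 and 28.9 CPM at 2 wpt and 64.2, 101, 74.9 and 41.9 CPM at 4 wpt. At 1 and 4 wpt all +MSC libraries were above all Intact libraries, and Calca rose by the second rule (log2 fold change 1.50, SE 0.523, adjusted p = 0.0317, and 1.36, SE 0.494, adjusted p = 0.0401). It was the only member that rose by that rule, where 18.3% of all genes did at 1 wpt and 17.7% at 4 wpt, and at 2 wpt no member did (12.7%). The call at 1 wpt was lost without +MSC-1w replicate 1 (log2 fold change 0.87, adjusted p = 0.251), Intact replicate 3 (1.37, adjusted p = 0.0821) or Intact replicate 4 (1.29, adjusted p = 0.0861), and that at 4 wpt without Intact replicate 3 or 4 or +MSC-4w replicate 2 or 3 (adjusted p = 0.075 to 0.123). No member was a DEG, and none fell by either rule, between a +MSC group and Intact.

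What the transplantation added was addressed by +MSC against +PBS at the same week. No member was a higher DEG at 1 wpt (0% of all genes), 2 wpt (0%) or 4 wpt (0.495%), and none passed the second rule. At an unadjusted p below 0.05 there were 3 members at 1 wpt (Pdyn, Calca and Calcb), 0 at 2 wpt and 2 at 4 wpt (Pdyn and Calcb), beside 17.9%, 12.3% and 22.5% of all genes in either direction. DESeq2 on all libraries called Calca as a higher DEG at 1 wpt (adjusted p = 0.00181), where it called 0.156% of all genes, and no other member at any week. All 8 log2 fold changes were above 0 at 1 and 4 wpt and 6 of 8 at 2 wpt, with medians of 0.88, 0.69 and 0.28 at 1, 4 and 2 wpt, beside 0.00, -0.04 and 0.00 over all genes. In the mean of the 3 weekly differences all 8 were above 0, with a median of 0.66 beside -0.02 over all genes. These are not 8 independent observations, as Tac1, Penk, Sst, Cck and Grp varied together over the libraries (r of 0.792 to 0.946). The median of the neuronal markers in this mean was 0.94. No member was a higher DEG in this mean (1.61% of all genes), and 1, Calcb, rose by the second rule (12.3%). Calcb had 6.18, 5.04 and 4.48 CPM in +PBS-1w and 18.3, 7.18 and 9.96 CPM in +MSC-1w, without overlap. At 2 wpt it had 13.7 and 7.56 CPM in +PBS and 15.0, 10.7 and 8.94 CPM in +MSC, and at 4 wpt 11.1, 9.99, 16.3 and 10.97 CPM in +MSC, where only the first +PBS library lay within that range. Its mean log2 difference was 0.69 (SE 0.229, adjusted p = 0.0338), and it passed in 18 of 26 fits without a library. The others were those without +PBS-1w replicate 3, +MSC-1w replicate 1, either +PBS-2w library, +MSC-2w replicate 1, +PBS-4w replicate 2 or 3, or +MSC-4w replicate 3 (adjusted p = 0.0504 to 0.119).

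Calca gave the widest difference of a single week. All +MSC-1w libraries (48.4 CPM and above) were above all +PBS-1w libraries (17.6 CPM and below), a 5.90-fold difference that did not pass (log2 fold change 2.56, SE 0.595, adjusted p = 0.0677). Without +MSC-1w replicate 1, the library of 133 CPM, the log2 fold change of Calca was 1.93 (adjusted p = 0.298), and it passed the second rule in 3 of 26 fits without a library (those without sub-SCI replicate 3, +MSC-2w replicate 1 or +PBS-4w replicate 1). At 2 wpt its log2 fold change was -0.31 (SE 0.62) and at 4 wpt 0.42 (SE 0.484). In the test of whether the weekly differences were unlike, Calca had the lowest unadjusted p of the members, 0.00608, with an adjusted p of 1, and no member passed (0% of all genes). Pdyn had 62.3, 37.9 and 22.0 CPM in +MSC-1w against 22.8, 27.0 and 10.01 CPM in +PBS-1w, and 53.6, 26.6, 14.1 and 50.9 CPM in +MSC-4w. The groups overlapped at both times, with 2 of 4 libraries of +MSC-4w at about 50 CPM and above all others but +MSC-1w replicate 1. The mean log2 difference of Pdyn was 0.77 (SE 0.282, adjusted p = 0.0514), and that of Calca was 0.89 (SE 0.329, adjusted p = 0.0546).

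Sst in +MSC had 63.6, 50.2 and 30.8 CPM at 1 wpt, 84.6, 37.8 and 46.0 CPM at 2 wpt, and 84.0, 25.6, 22.8 and 48.7 CPM at 4 wpt. At 2 wpt Sst in +MSC lay above both +PBS libraries, the lowest by a narrow margin, and at 1 and 4 wpt the groups overlapped. Tac1 in +MSC had 26.6, 18.6 and 13.4 CPM, then 28.8, 12.2 and 12.3 CPM, then 33.7, 12.4, 11.8 and 18.8 CPM at 1, 2 and 4 wpt, against 15.4, 17.6 and 5.44 CPM and 9.35 and 13.9 CPM in +PBS at 1 and 2 wpt. These groups of Tac1 overlapped at each week. Grp had 1.31, 1.31 and 0.20 CPM in +PBS-1w and 2.67, 1.64 and 1.38 CPM in +MSC-1w, and was between 0.668 and 2.53 CPM in all libraries of both groups at 2 wpt. At 1 wpt its groups did not overlap (log2 fold change 1.01, SE 0.709, adjusted p = 0.489).

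Penk in +MSC had 133, 96.0 and 72.1 CPM at 1 wpt, 118, 67.2 and 73.7 CPM at 2 wpt, and 152, 61.5, 46.0 and 102 CPM at 4 wpt. Its +PBS libraries had 69.3, 72.5 and 35.7 CPM at 1 wpt and 43.3 and 86.9 CPM at 2 wpt, and overlapped with +MSC at each week. Cck in +MSC had 50.7, 19.3 and 24.0 CPM, then 51.3, 32.6 and 31.4 CPM, then 43.01, 28.9, 35.0 and 37.3 CPM, against 28.3, 19.8 and 10.3 CPM and 20.7 and 27.1 CPM in +PBS at 1 and 2 wpt. At 2 wpt the groups of Cck did not overlap, and at 4 wpt all +MSC libraries were above 3 of the 4 +PBS libraries and below +PBS-4w replicate 1. Without that library, 2 members were higher DEGs in +MSC-4w against +PBS-4w (2.69% of all genes), Penk (log2 fold change 1.66, adjusted p = 0.00865) and Cck (1.86, adjusted p = 0.00433), and 5 passed the second rule (9.63%), adding Tac1, Pdyn and Calcb. In the mean of the weeks without it, 1 was a higher DEG (3.05%), Cck (log2 difference 1.06, adjusted p = 0.00158), and 7 of 8 members, all but Grp (adjusted p = 0.158), rose by the second rule (16.5%). The log2 differences of these 7 were 0.77 to 1.06. These calls rest on leaving out the high library of +PBS-4w alone, a choice made after these genes were seen to be high in it. They are not independent support. The library +MSC-4w replicate 1 was high as well for Penk (152 CPM), Sst (84.0 CPM) and Tac1 (33.7 CPM), and without it, with +PBS-4w replicate 1 kept, the log2 fold changes at 4 wpt were 0.33 for Penk, 0.25 for Tac1, -0.10 for Sst and 0.69 for Cck (adjusted p = 0.781, 0.849, 0.942 and 0.537). In the libraries other than replicate 1 of every group, Cck alone was a higher DEG at 4 wpt (log2 fold change 1.80, adjusted p = 0.00788), where 0.614% of all genes were. By the second rule (7% of all genes) Penk (1.33, adjusted p = 0.0354) and Calcb (1.16, adjusted p = 0.0471) rose with it. In the mean of the weeks in these libraries no member was a higher DEG (0.186%), and Cck (0.85, adjusted p = 0.0279) and Calcb (0.79, adjusted p = 0.0475) rose by the second rule (8.16%).

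With all libraries, Tac1, Penk, Sst and Cck had mean log2 differences of 0.63, 0.62, 0.58 and 0.72 (adjusted p = 0.181, 0.168, 0.208 and 0.115).

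**Figure D3:**
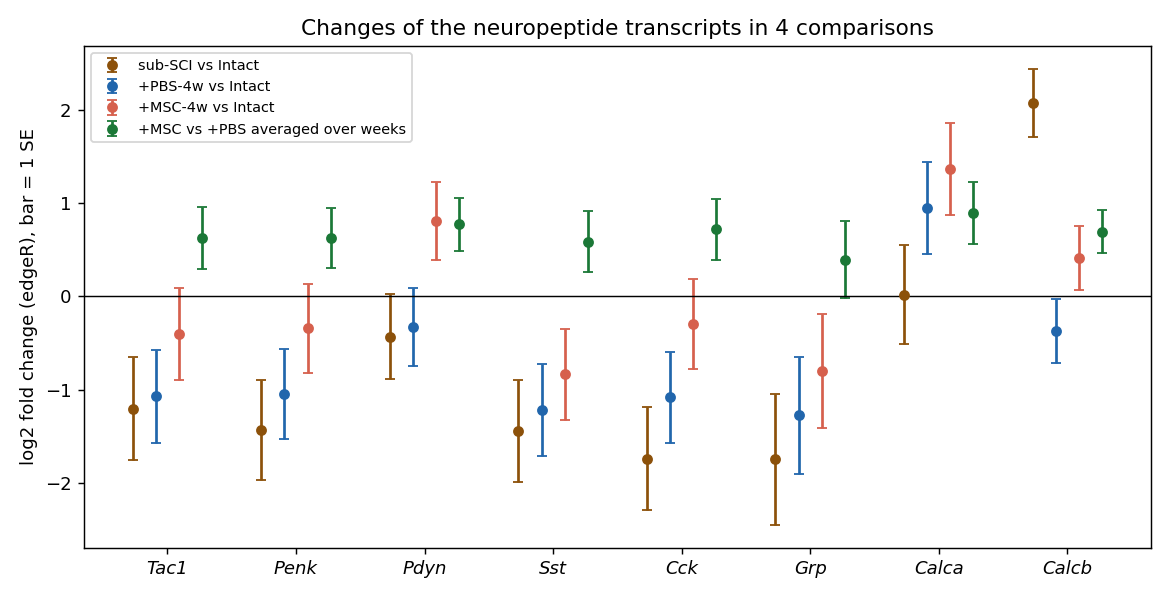
The log2 fold change (y axis, bars 1 SE, edgeR) of the 8 tested genes (x axis) in 4 comparisons with all libraries. Cck (-1.73) and Grp (-1.74) are lowest between sub-SCI and Intact, Calcb alone is far above 0 there (2.07), and all 8 means of the +MSC to +PBS differences lie above 0, from 0.39 (Grp) to 0.89 (Calca).

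Neuronal markers moved with these results, and their part in them was not tested. The mean log2 CPM of 10 pan-neuronal genes was 8.77 in Intact, 5.89 in sub-SCI, 6.60, 7.27 and 6.77 in +PBS at 1, 2 and 4 wpt, and 7.75, 8.11 and 7.99 in +MSC. Of these markers 9 were lower DEGs in sub-SCI (17.5% of all genes, median log2 fold change of the markers -2.85). In the mean of the weeks 3 were higher DEGs in +MSC (1.61% of all genes) and 9 passed the second rule (12.3%), with a marker median of 0.94. The log2 level of a peptide gene minus the neuronal mean was on average higher in sub-SCI than in Intact for all 8. For Cck this relative level was -3.30 ± 0.169 (SD, n = 4) in Intact and -2.32 ± 0.221 (SD, n = 3) in sub-SCI, and for Sst -2.45 ± 0.0521 and -1.07 ± 0.553. For Penk it was -1.93 ± 0.186 and -0.55 ± 0.352, for Tac1 -4.15 ± 0.264 and -2.52 ± 0.495, and for Pdyn -4.40 ± 0.259 and -1.98 ± 0.616. Calca went from -4.11 ± 0.607 to -1.14 ± 0.521 and Calcb, the widest shift, from -5.66 ± 0.515 to -0.63 ± 1.01. At 4 wpt in +MSC the relative levels of Tac1 (-3.86 ± 0.458), Penk (-1.64 ± 0.547), Sst (-2.69 ± 0.638) and Grp (-7.58 ± 0.24) overlapped between libraries with those of Intact, and those of Pdyn (-2.99 ± 0.741), Cck (-2.83 ± 0.0953), Calca (-1.92 ± 0.684) and Calcb (-4.41 ± 0.433) were all above them. In +PBS-4w the relative levels of Pdyn (-2.84 ± 0.575), Calca (-1.16 ± 0.321) and Calcb (-4.08 ± 0.408) were likewise all above those of Intact. There Cck (-2.87 ± 0.531) and the other members tested overlapped with Intact. These are descriptions with no test.

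**Figure D4:**
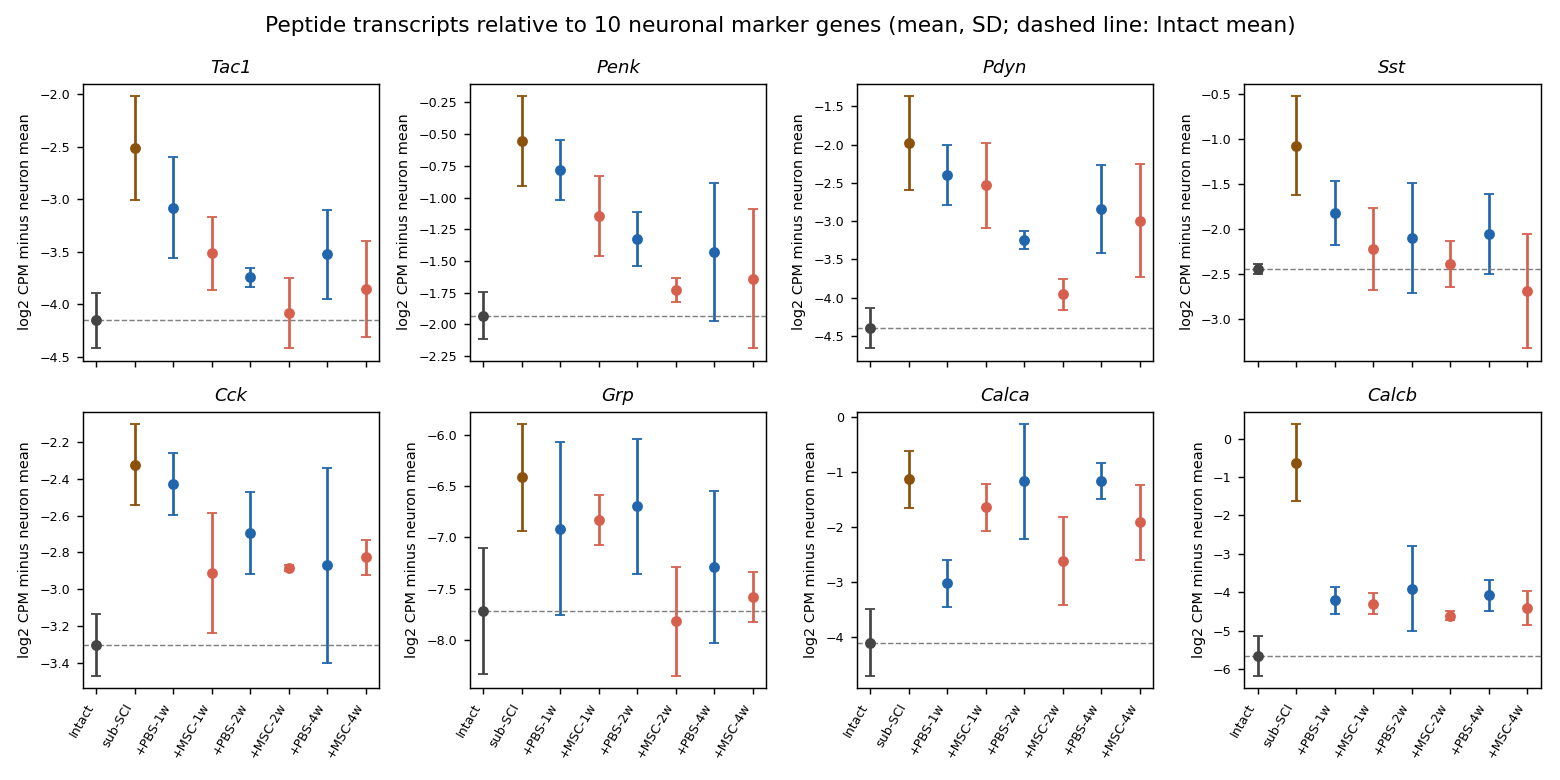
Log2 CPM of each peptide gene minus the mean log2 CPM of 10 neuronal markers (y axis, a scale of its own in each panel) by group (x axis), as mean ± SD, with the dashed line at the Intact mean. In sub-SCI the mean of every gene lies above its Intact mean, and Calcb shifts most, from -5.66 to -0.63.

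Over the 26 libraries, which share their groups, lesion and replicate labels, Tac1, Penk, Sst, Cck and Grp had pairwise r of 0.792 to 0.946, and the CGRP genes had lower values with them, given as Pearson's r of log2 CPM without a test. The highest r among members was 0.946 for Tac1 and Sst, and that of Tac1 and Penk was 0.944. Calca had r of 0.266 to 0.425 with the other members and 0.331 with Calcb, and Calcb had 0.00 to 0.15 with all but Calca. With the mean of the neuronal markers r was 0.931 for Cck, 0.845 for Penk, 0.809 for Sst, 0.804 for Tac1, 0.769 for Grp, 0.523 for Pdyn, 0.359 for Calca and -0.12 for Calcb. Among all genes tested, the genes most like Penk were Nts, the neurotensin precursor (0.955), and Mab21l1 (0.947), and those most like Sst were Nrgn (0.955) and Rab26 (0.955). Those most like Cck were Rtn1 (0.963) and Asphd1 (0.959), those most like Tac1 were Sst and Penk, and those most like Grp were Tac1 and Nts (0.880 both). Pdyn was most like Penk (0.767) and Bdnf (0.738), Calca most like Uts2, the urotensin 2 precursor (0.844), and Mt3 (0.733), and Calcb most like Tubb5 (0.786) and Htatip2 (0.772).

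Most receptors of these peptides were lower in sub-SCI. Of 22 receptor genes 20 were tested, and 14 were lower DEGs and 0 higher DEGs in sub-SCI against Intact (median log2 fold change -2.30). Over all genes 17.5% were lower and 16.6% were higher DEGs. All 3 classical opioid receptors fell, with Oprd1 (δ) at 3.97 ± 0.356 CPM in Intact and 0.188 ± 0.246 CPM in sub-SCI (log2 fold change -4.42, adjusted p = 1.44e-06), Oprm1 (μ) at 5.76 ± 0.926 and 0.344 ± 0.11 CPM (-4.06, adjusted p = 1.88e-05) and Oprk1 (κ, the dynorphin receptor) at 7.03 ± 1.28 and 0.690 ± 0.255 CPM (-3.33, adjusted p = 5.47e-08). Here n was 4 in Intact and 3 in sub-SCI. Grpr, the receptor of gastrin-releasing peptide, had a log2 fold change of -4.20 (adjusted p = 6.17e-05) from 28 counts at most in Intact to 2 at most in sub-SCI. Of the tachykinin receptors Tacr1, the substance P receptor, and Tacr3 were lower DEGs (-1.98 and -3.25), and Tacr2 fell by the second rule alone (-1.46, adjusted p = 0.0287). Sstr1 (-2.98), Sstr2 (-2.17), Sstr3 (-1.66), Npy1r (-1.95), Npy2r (-2.51), Npy5r (-3.06), Cckbr (-2.85) and the calcitonin receptor Calcr (-2.44) were lower DEGs. Calcrl and Ramp1, the genes of the CGRP receptor, did not fall by either rule (log2 fold change 0.45, adjusted p = 0.0572, and -0.28, adjusted p = 0.123). Neither did Ramp2 (0.20, adjusted p = 0.266), Ramp3 (0.27, adjusted p = 0.447) or Sstr4 (0.82, adjusted p = 0.191). Sstr5 and Cckar did not pass the filter on low counts.

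At 4 wpt in +PBS 12 receptors were lower DEGs against Intact (median -1.52), where 10.7% of all genes were. By the second rule 14 fell there (23.9% of all genes) and 3 rose, a count without its share over all genes. In the mean of the weekly differences 17 of 20 were above 0 in +MSC (median 0.62). Of the 20, 2 were higher DEGs (1.61% of all genes), Oprd1 (1.38, adjusted p = 0.0039) and Tacr3 (1.02, adjusted p = 0.00641), and 0 were lower DEGs (0.956%). By the second rule 8 rose (12.3% of all genes), which were these 2 with Oprm1 (1.25, adjusted p = 0.0159), Oprk1 (0.71, adjusted p = 0.0113), Sstr1 (0.66, adjusted p = 0.0233), Sstr3 (0.66, adjusted p = 0.00657), Npy1r (0.41, adjusted p = 0.0359) and Tacr1 (0.78, adjusted p = 0.0353). Ramp1 (-0.29, adjusted p = 0.0322) and Ramp2 (-0.28, adjusted p = 0.0372) were the 2 receptor genes that fell, where 10.9% of all genes fell by that rule. Ramp1 had 17.3 ± 2.15 CPM in Intact, 26.7 ± 3.55 CPM in +PBS-4w and 18.1 ± 3.18 CPM in +MSC-4w (SD, n = 4 each). Its means were 17.7 CPM in +PBS-1w and 16.6 CPM in +MSC-1w, and 21.7 CPM in +PBS-2w and 18.8 CPM in +MSC-2w.

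**Figure D5:**
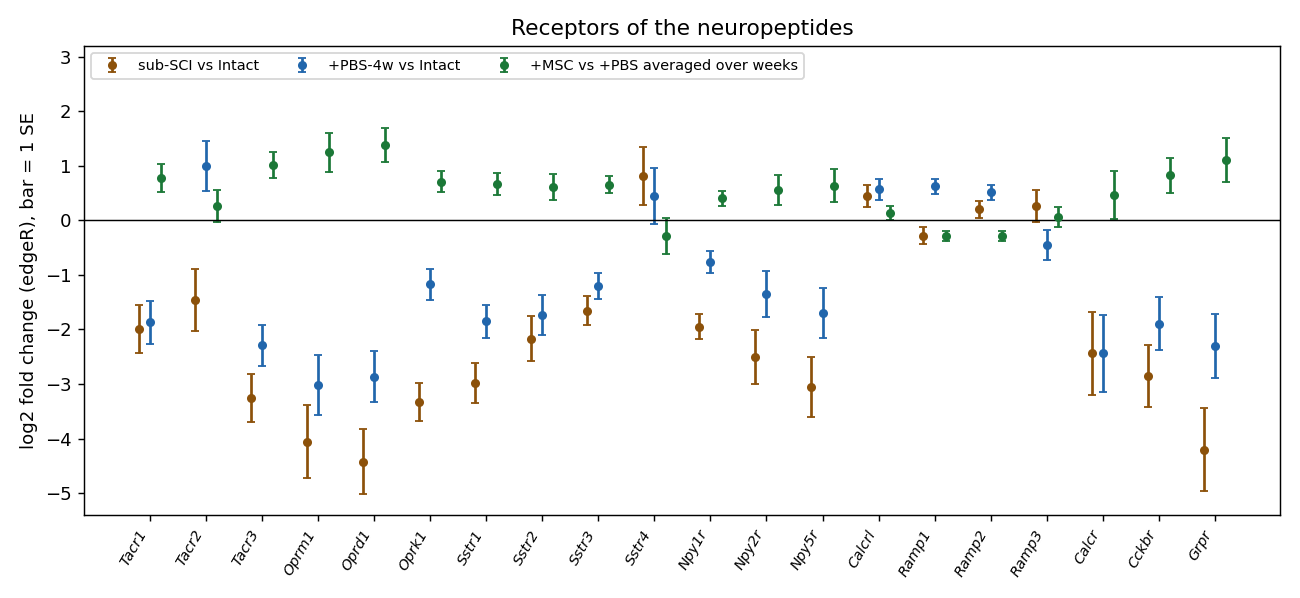
The log2 fold change (y axis, bars 1 SE, edgeR) of the 20 tested receptor genes (x axis) in 3 comparisons. Between sub-SCI and Intact the opioid receptors reach -3.33 (Oprk1), -4.06 (Oprm1) and -4.42 (Oprd1), while Calcrl (0.45), Ramp1 (-0.28), Ramp2 and Ramp3 lie near 0.

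Of the genes that process the precursors and build dense-core vesicles, 7 of 10 tested were lower DEGs in sub-SCI and 0 were higher (median -1.99). The shares over all genes were 17.5% and 16.6%. Pcsk2, the convertase that cuts proenkephalin and prodynorphin to opioid peptides, fell most by adjusted p (log2 fold change -3.56, adjusted p = 3.98e-07), with Scg3 (-1.58, adjusted p = 3.91e-05) and Chgb (-2.99, adjusted p = 5.09e-05) next among the DEGs. Pam (-0.61, adjusted p = 1.14e-05), which amidates peptide ends, and the carboxypeptidase Cpe (-0.64, adjusted p = 0.00657) fell by the second rule only, and Vgf did not pass (0.14, adjusted p = 0.81). In +MSC against +PBS over the weeks Pcsk2 was a higher DEG (1.05, adjusted p = 0.00428), where 1.61% of all genes were. By the second rule 5 of 10 rose (12.3% of all genes). Of 7 peptide-degrading enzymes, Ece2 was a lower DEG in sub-SCI (-1.48, adjusted p = 1.61e-08), where 17.5% of all genes were. Anpep, aminopeptidase N, which cleaves enkephalins and is also carried by myeloid cells, was a higher DEG there (4.91, adjusted p = 5.57e-08), where 16.6% were. Anpep was a lower DEG in +MSC against +PBS over the weeks (-1.17, adjusted p = 0.00655), where 0.956% of all genes were, and Mme, neprilysin, had a log2 fold change of -1.05 in sub-SCI (adjusted p = 0.0115).

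Other spinal neuropeptides went in both directions. Of 15 tested, 4 were lower DEGs in sub-SCI (17.5% of all genes), Nmb (-2.14, adjusted p = 0.00254), Nppc (-1.67, adjusted p = 0.00262), Tac3 (-1.94, adjusted p = 0.00271) and Nmu (-1.81, adjusted p = 0.00328). The 3 higher DEGs (16.6% of all genes) were Tac4 (2.97, adjusted p = 1.16e-07), which encodes hemokinin, Trh (2.89, adjusted p = 2.71e-05) and Ucn, urocortin (3.65, adjusted p = 2.98e-05). The median log2 fold change of these 15 was -0.82, and in the mean of the weekly +MSC to +PBS differences none was a DEG (median 0.45). By the second rule Tac4 was lower (-0.62, adjusted p = 0.0159), where 10.9% of all genes were, and Adcyap1 higher (0.51, adjusted p = 0.0275), where 12.3% were.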

How the data were processed

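The data were 26 libraries of rat spinal cord in 8 groups, taken from the sample labels, which give 3 +MSC-2w samples where the methods of the study give 2 repeats. The methods call the libraries biological replicates, but neither they nor the labels tie a library to an animal, so p-values measure the spread between libraries. By the methods and the submitters' processing notes, the authors trimmed reads with Trim Galore 0.5.0, mapped them with HISAT2 2.1.0, removing human reads (GRCh38) and placing the rest on Rnor6, and passed properly paired alignments (SAMtools 1.9) to featureCounts 1.6.4. The deposited values are raw read counts per gene. The annotation release and strand setting are not given in the sources used here, so overlapping genes and close paralogs are uncertain. The tests used edgeR 4.0.16 and limma 3.58.1 under R 4.3.3, with filterByExpr, TMM, and glmQLFit and glmQLFTest on 8 group levels in 1 fit, with log2 CPM at a prior count of 2. DESeq2 1.42.0 was an alternative. The test was tried on simulated counts. Within each group all 31 pairs of libraries differed by more than sampling noise (chi-square per gene 5.94 to 262), so none was counted as a duplicate.

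Named are the 9 members and their receptors, and of the lists for precursor processing, degrading enzymes and other peptides those called, or the 3 with the smallest adjusted p, with a few others chosen after their values were seen (Pam, Cpe, Vgf, Mme, Nmu and Maf). The members and lists were chosen with earlier results of these data known. Of 138 listed pathway and marker genes 135 were in the table. The alternatives are named with their effects in the closing section.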

Additional observations from a re-analysis of the deposited data

Results flagged for a closer look

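In groups of 4 libraries, the gap of the highest or lowest library to its nearest neighbour was compared with the range of the group for each of the 8 genes tested, 24 comparisons in all, and 4 passed Dixon's critical value. Chance gives about 1 in 20. Tac1 had 37.4 CPM in Intact replicate 1 and 20.1 to 22.0 CPM in the other 3 libraries. Penk had 98.1 CPM in Intact replicate 2, below the 118 to 122 CPM of the others. In +PBS-4w replicate 1, Penk had 138 CPM against 18.3 to 37.8 CPM, and Cck had 54.2 CPM against 7.66 to 11.9 CPM. The latter pair come from the library whose neuronal marker mean was also the highest of its group. The causes were not tested.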

How the results depend on the processing

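The alternatives were DESeq2 on all libraries or on the 2 groups of a comparison, edgeR on those 2 groups, a minimum of 10 counts in each library, no filter, size factors by median of ratios, a replicate block, a term for replicate 1, only the libraries other than replicate 1, and each library left out. The +MSC and +PBS deviations of libraries with the same replicate number had correlations of -0.08 to 0.23. Libraries of unlike number were not compared, so whether the numbers pair the libraries cannot be decided from these values. The block is reported here alone. The share of all genes called under each alternative is not set beside the counts that follow. These counts show how the calls depend on the processing and are not read as results about the members. The members called as DEGs between sub-SCI and Intact numbered 2, against 5 with the replicate block, 5 with a term for replicate 1, 4 in the other libraries and with edgeR on 2 groups, 6 with DESeq2 on 2 groups, 1 without the filter, and 1 to 4 with a library left out. For +PBS-1w the count was 0, against 1 with the replicate block, in the other libraries and with edgeR on 2 groups, 2 with the term for replicate 1 and with DESeq2 on 2 groups, and 0 to 1 with a library left out. For +PBS-2w it was 0, against 1 with edgeR and 3 with DESeq2 on 2 groups. For +PBS-4w it was 0, against 3 with the replicate block or the term, 4 in the other libraries and 0 to 5 with a library left out. For +PBS-4w against sub-SCI it was 1, and 0 with edgeR on 2 groups. For +MSC-4w against Intact it was 0, and 1 with the replicate block, the term or DESeq2 on 2 groups, and for +MSC-1w against +PBS-1w 0, and 1 with either DESeq2 fit, Calca. For +MSC-4w against +PBS-4w it was 0, against 1 in the libraries other than replicate 1 and 0 to 2 with a library left out, and 0 to 1 for the mean of the weeks.

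None of the log2 fold changes that crossed 0 had passed a rule with all libraries. Calca in sub-SCI was -0.077 with the replicate block and -0.045 with the term. Pdyn in +PBS-1w was 0.016 without the filter and 0.0055 with the minimum of 10 counts. In the libraries other than replicate 1, +PBS-2w against Intact was 0.11 for Pdyn, -0.12 for Calcb and 0.58 for Grp, +PBS-4w against sub-SCI was -0.36 for Tac1, -0.45 for Penk, -0.060 for Pdyn, -0.37 for Sst, -0.15 for Cck and -0.59 for Grp, and +MSC-2w against +PBS-2w was -0.20 for Tac1, -0.31 for Penk and -0.65 for Pdyn. With a library left out, +PBS-4w against sub-SCI ranged from -0.68 to 0.49 (Tac1), -0.62 to 0.67 (Penk), -0.24 to 0.31 (Pdyn), -0.68 to 0.56 (Sst), -0.46 to 0.99 (Cck) and -0.51 to 0.84 (Grp). For +MSC-2w against +PBS-2w it was -1.33 to 0.12 (Calca), -0.25 to 0.62 (Calcb), -1.02 to 0.80 (Grp), -0.27 to 0.65 (Pdyn) and -0.0061 to 0.99 (Penk). Against Intact it was -0.20 to 0.30 for Calca in sub-SCI, -0.33 to 0.27 for Pdyn in +PBS-1w, -0.24 to 0.60 for Calcb, -1.50 to 0.23 for Grp and -0.79 to 0.10 for Pdyn in +PBS-2w, -0.086 to 0.64 for Calcb, -0.54 to 0.18 for Grp and -0.45 to 0.00039 for Penk in +MSC-1w, and -0.56 to 0.036 for Pdyn in +MSC-2w. Sst in +MSC-4w against +PBS-4w ranged from -0.10 to 1.24. The causes were not tested. Calcb in sub-SCI was a DEG under each alternative. Leaving out a +PBS-2w library leaves 1 there, assumed to vary like the other groups. Grp, with 4 to 89 counts per library, is the tested member with the lowest counts.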
